A study of Homo sapiens with 5 samples.

Results

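Of the cytosolic aminoacyl-tRNA synthetase genes, a set of 10 was followed in cells of the MDA-MB-231 line, which derives from a human triple-negative breast cancer. The set was AARS, CARS, EPRS, FARSA, KARS, MARS, NARS, SARS, WARS and YARS, and other cytosolic synthetase genes are not described here. The 10 were found by gene symbol in a deposited table of 16383 transcript rows. Each gene is represented by its transcript row with the highest mean over the libraries. All 10 were in the table, among 10595 genes. They now carry names ending in 1, such as YARS1, except FARSA. Their mean levels ran from 1112 (CARS) to 3174 (EPRS) scaled counts, so all 10 were past the floor of 50 scaled counts used below.

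Aminoacyl-tRNA synthetases join each amino acid to its own tRNA and so supply the ribosome. The cytosolic enzymes fall into 2 structural classes, and several of them, here EPRS, KARS and MARS, sit in a large multisynthetase complex. A second set, encoded in the nucleus, serves the mitochondria. Many cytosolic synthetase genes belong to the amino acid response, in which the transcription factor ATF4 binds short elements known as C/EBP-ATF response elements (CARE). Growth signals that raise protein synthesis, among them MYC, are known to act on these genes as well.

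The study had 5 libraries, 1 per group. Cells received an siRNA against SET (siSET), an siRNA against CIP2A (siCIP2A) or a control siRNA (siNT) for 48 hours, or OP449 at 1 µM or PBS for 12 hours. SET and CIP2A are endogenous inhibitors of the phosphatase PP2A, and the series describes OP449 as a SET antagonist. All cells were kept in the same serum-containing medium, and RNA was primed with oligo-dT. The sources used here give neither the siRNA sequences nor how many siRNAs were used per target.

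Recovered reads over the gene table came to 3641203 in siSET, 5601991 in siCIP2A, 5250123 in siNT, 4762563 in OP449 and 5513576 in PBS. The siSET library was thus the shallowest, and its part in the differences below was not tested beyond the counting intervals. A group of 1 library has no replicate error, so no test was made between conditions. Every interval given is a 95% exact interval from recovered reads, covers counting error only and compares libraries, not conditions. The targets SET and CIP2A, and MYC, were not analysed here, so the knockdowns could not be checked. Of the markers used to check the line, VIM, CD44 and AXL were abundant, with means of 16564 to 18238 scaled counts. PGR and KRT5 were listed at 0 in every library and FOXA1 at 0 in all but OP449, while CDH1 averaged 29.1 and GATA3 198 scaled counts. In bulk RNA, fewer expressing cells and less RNA per cell cannot be told apart.

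Promoter sequence is shown first because a shared element was looked for among genes that were low together in siSET. Windows of 300 bases, running from 250 before to 50 after the annotated start, were taken from RefSeq on GRCh38.p14 for 9 of the 10 genes. No window was used for YARS. The CARE letters TTGCATCA, searched on both strands, were in the windows of 4 of the 9 genes, CARS, MARS, AARS and NARS. Of all 35116 windows in the table, 0.866% held these letters, and of all 27305 genes with a window 1.08% had them in a window. Capitals mark the match in the stretches below, which end at most 24 bases past the start.
CARS, chr11:3057402-3057515, minus strand: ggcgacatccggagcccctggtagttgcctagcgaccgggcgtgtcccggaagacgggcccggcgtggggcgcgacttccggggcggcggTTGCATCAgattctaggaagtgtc
MARS, chr12:57487974-57488087, plus strand: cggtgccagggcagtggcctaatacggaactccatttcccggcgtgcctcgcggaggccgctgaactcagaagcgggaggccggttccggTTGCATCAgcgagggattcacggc
AARS, chr16:70289636-70289743, minus strand: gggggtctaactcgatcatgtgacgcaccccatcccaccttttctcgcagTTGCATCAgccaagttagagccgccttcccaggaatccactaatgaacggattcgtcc
NARS, chr18:57621813-57621912, minus strand: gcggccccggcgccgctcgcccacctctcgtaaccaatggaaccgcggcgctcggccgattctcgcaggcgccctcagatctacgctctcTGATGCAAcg

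Counted from the start, with no position 0, the match lay at -2 to 6 in CARS and at -4 to 4 in MARS, so it straddled an annotated start in both. CARS has a second annotated start, whose window held no match. In AARS it lay at -187 to -180. In NARS it lay at 15 to 22 and read as CARE on the opposite strand. A looser form with any base at the third letter, TTNCATCA, was in windows of 4.46% of all genes and found the same 4 genes. The E-box CACGTG, a MYC-type element, was in windows of 8.77% of all genes and of 0 of the 9 genes. A match is a description of letters and not of a bound site, and no match says only that the letters are not in that window.

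WARS, the tryptophan enzyme and a known target of interferon gamma, carried letters of a different kind. A window of this gene held, at -55 to -46, the string GAAA, any 2 bases, GAAA, the letters of an interferon-stimulated response element (ISRE). This string was in windows of 4.38% of all genes and of none of the other 8. The same window held TTCNNNGAA, the letters of a gamma-activated site (GAS), at -142 to -134, found for 9.38% of all genes. The second string was in CARS too, at 9 to 17. Both are marked in capitals in the WARS stretch.
WARS, chr14:100375373-100375509, minus strand: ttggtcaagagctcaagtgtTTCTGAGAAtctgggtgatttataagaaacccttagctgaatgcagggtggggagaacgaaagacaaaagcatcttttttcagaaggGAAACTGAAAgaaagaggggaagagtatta

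**Figure D1:**
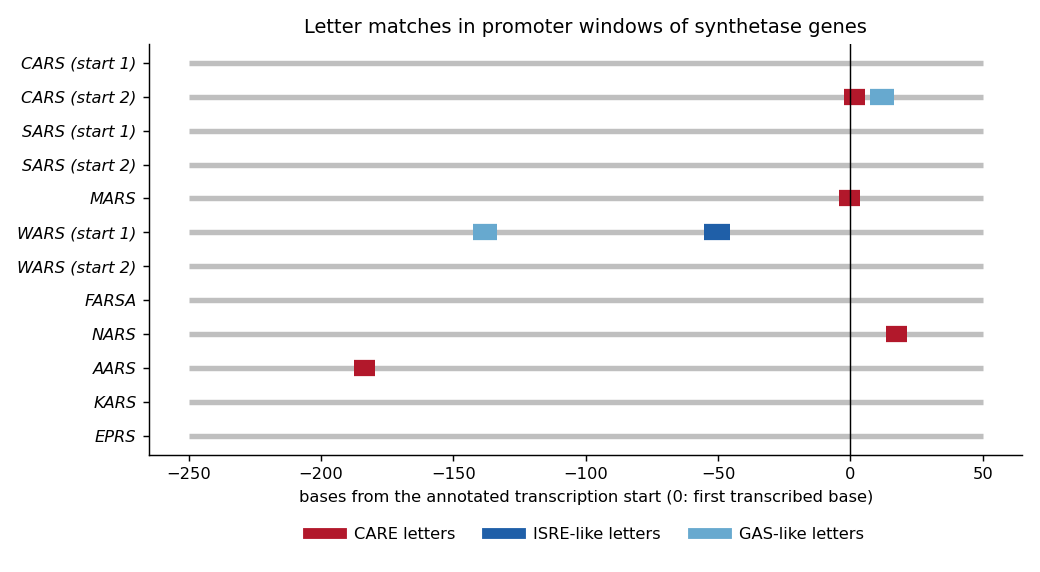
Positions of letter matches in the 300-base RefSeq windows of 9 synthetase genes, in bases from the annotated transcription start; genes with 2 annotated starts have 2 lines. The CARE letters (red) lay across the start in CARS and MARS, downstream in NARS and 187 bases upstream in AARS, and the ISRE-like letters (dark blue) were in WARS alone.

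In the siSET library the synthetase RNAs were low as a group, but unevenly. Of the 10 genes, 9 were below siNT, and their median log2 fold was -0.21, against 0.01 for all 6083 genes past the floor. Below 0 stood 47.9% of all genes. A gene was counted as lower where its log2 fold was -0.32 or below, and as higher where it was 0.32 or above. CARS, YARS, SARS and MARS were counted as lower, as were 12.9% of all genes. None was counted as higher, as were 11.9% of all genes. Among the 3003 genes with a mean of at least 500 scaled counts, a range that holds all 10, the share counted as lower was 9.76%. The interval lay wholly below 0 for 8 of the 10, against 19.8% of genes of all levels, whose intervals are wider where reads are fewer. Neither siCIP2A nor OP449 showed such a set of low genes.

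**Figure D2:**
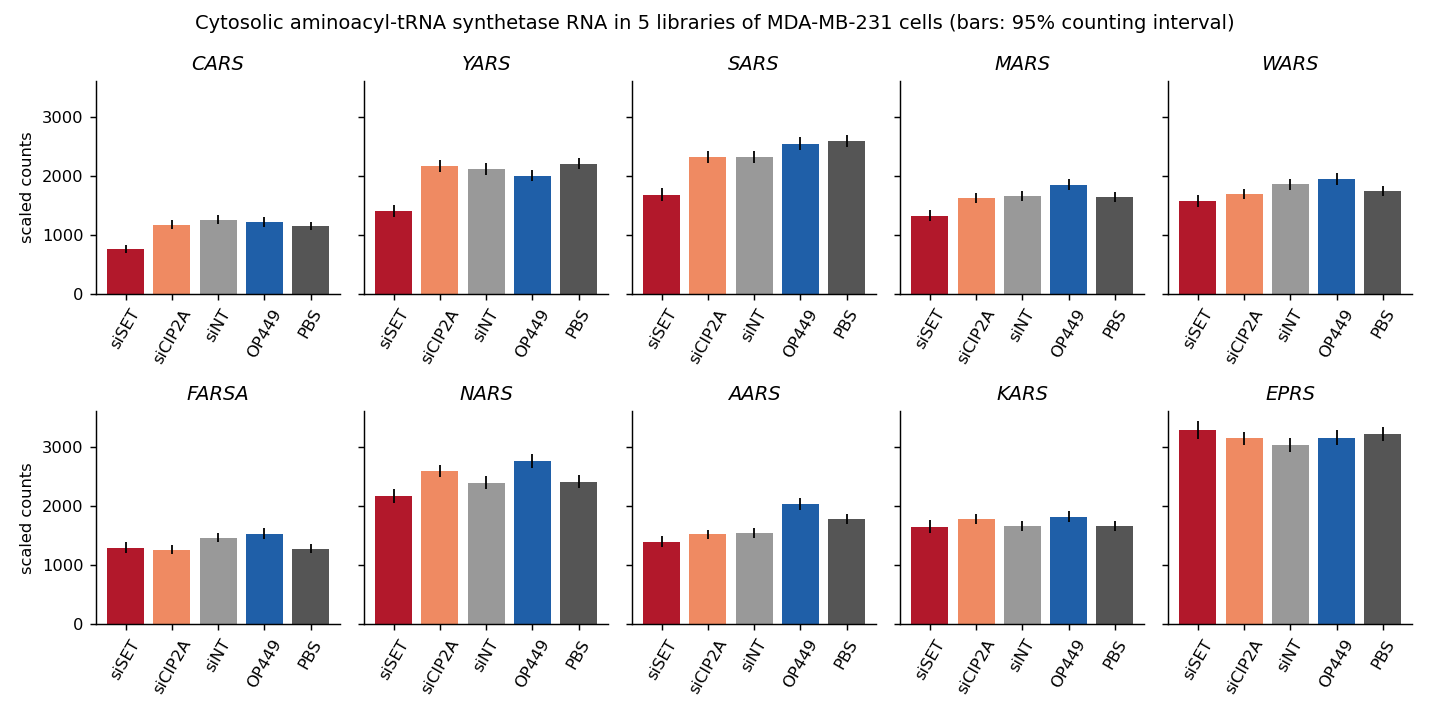
Scaled counts (vertical axis, from 0) of the 10 genes in the siSET, siCIP2A, siNT, OP449 and PBS libraries, 1 library each, with lines for the 95% counting interval of each value. CARS, YARS and SARS stood lowest in siSET with the other libraries close together, while EPRS was level in all 5.

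CARS, which charges the cysteine tRNA (chr11:3022160-3078671 on hg19, minus strand), varied most, with a coefficient of variation of 18.3% over the libraries. It had 756 scaled counts in siSET, 1175 in siCIP2A, 1260 in siNT, 1217 in OP449 and 1152 in PBS. Only siSET stood apart. The siSET value was 1.67-fold lower than siNT (log2 fold -0.74, interval -0.90 to -0.58), and 2.32% of genes had a lower fold. The gene has 4 transcript rows in the table, whose log2 folds lay between -0.76 and -0.74, and these rows share reads.

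YARS, the tyrosine enzyme, whose fragments can act as cytokines outside the cell, lies at chr1:33240840-33283633 on hg19, minus strand. Scaled counts were 1408 in siSET, 2169 in siCIP2A, 2123 in siNT, 2008 in OP449 and 2210 in PBS. Again siSET alone was low, by 1.51-fold against siNT (log2 fold -0.59, interval -0.71 to -0.47). The gene overlaps S100PBP, on the opposite strand, by 458 bases at their 5′ ends. S100PBP had 318 scaled counts in siSET, 512 in siCIP2A, 345 in siNT, 477 in OP449 and 407 in PBS. The sources used here do not say whether counting used strand.

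SARS serves both the serine and the selenocysteine tRNA (chr1:109756540-109780785 on hg19, plus strand). Its levels were 1682 scaled counts in siSET, 2328 in siCIP2A, 2317 in siNT, 2547 in OP449 and 2594 in PBS. It was 1.38-fold lower in siSET than in siNT (log2 fold -0.46, interval -0.57 to -0.35). SARS, CARS and YARS were the 3 genes counted as lower in siSET than in each of the other 4 libraries, which held for 4.17% of genes.

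MARS, the methionine enzyme that also serves initiation, lies at chr12:57881851-57910432 on hg19, plus strand. It stood at 1329 scaled counts in siSET, 1630 in siCIP2A, 1663 in siNT, 1856 in OP449 and 1648 in PBS. Its siSET value was 79.9% of siNT (log2 fold -0.32, interval -0.45 to -0.20), just inside the threshold. WARS, at 84.5% of siNT, was the nearest gene outside it. With a pseudocount of 10 or with equal upper quartiles MARS was outside it and the count became 3. At its 3′ end MARS overlaps DDIT3, an ATF4-pathway gene on the opposite strand, by 60 bases. DDIT3 had 205 scaled counts in siSET, 250 in siCIP2A, 213 in siNT, 416 in OP449 and 280 in PBS.

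WARS and FARSA, further down this order, differed less. WARS (chr14:100800125-100841927 on hg19, minus strand) had 1570 scaled counts in siSET, 1695 in siCIP2A, 1858 in siNT, 1953 in OP449 and 1746 in PBS. Its log2 fold in siSET against siNT was -0.24 (interval -0.36 to -0.12). FARSA, the catalytic subunit of the phenylalanine enzyme (chr19:13033284-13044558 on hg19, minus strand), had 1298 in siSET, 1261 in siCIP2A, 1467 in siNT, 1536 in OP449 and 1279 in PBS. FARSA had a log2 fold of -0.18 in siSET against siNT (interval -0.31 to -0.05). For FARSA siSET was not the lowest library, and siSET, siCIP2A and PBS lay close together, with siNT and OP449 above them.

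NARS charges the asparagine tRNA (chr18:55267894-55289177 on hg19, minus strand). It was at 2166 scaled counts in siSET, 2597 in siCIP2A, 2401 in siNT, 2763 in OP449 and 2419 in PBS. AARS, the alanine enzyme (chr16:70286297-70323412 on hg19, minus strand), was at 1401 in siSET, 1523 in siCIP2A, 1544 in siNT, 2039 in OP449 and 1784 in PBS. Both were lowest in siSET and highest in OP449. In siSET against siNT the log2 fold was -0.15 for NARS (interval -0.25 to -0.05) and -0.14 for AARS (interval -0.27 to -0.01).

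The remaining genes, KARS and EPRS, differed little between siSET and siNT. KARS, whose transcripts give both the cytosolic and the mitochondrial lysine enzyme (chr16:75661624-75681585 on hg19, minus strand), had 1656 scaled counts in siSET, 1780 in siCIP2A, 1666 in siNT, 1822 in OP449 and 1670 in PBS. Its log2 fold in siSET against siNT was -0.01 (interval -0.13 to 0.11). The other of its 2 transcript rows had 1611 scaled counts in siSET and 1618 in siNT. Reads were not divided here between the cytosolic and the mitochondrial form. TERF2IP, whose start lies 49 bases away on the other strand, had 411 scaled counts in siSET and 552 in siNT. EPRS, a fused enzyme for glutamate and proline (chr1:220141942-220220000 on hg19, minus strand), had 3290 in siSET, 3150 in siCIP2A, 3045 in siNT, 3158 in OP449 and 3227 in PBS. It was the one gene of the 10 above siNT in siSET (log2 fold 0.11, interval 0.03 to 0.20), and its coefficient of variation over the libraries was 2.90%.

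**Figure D3:**
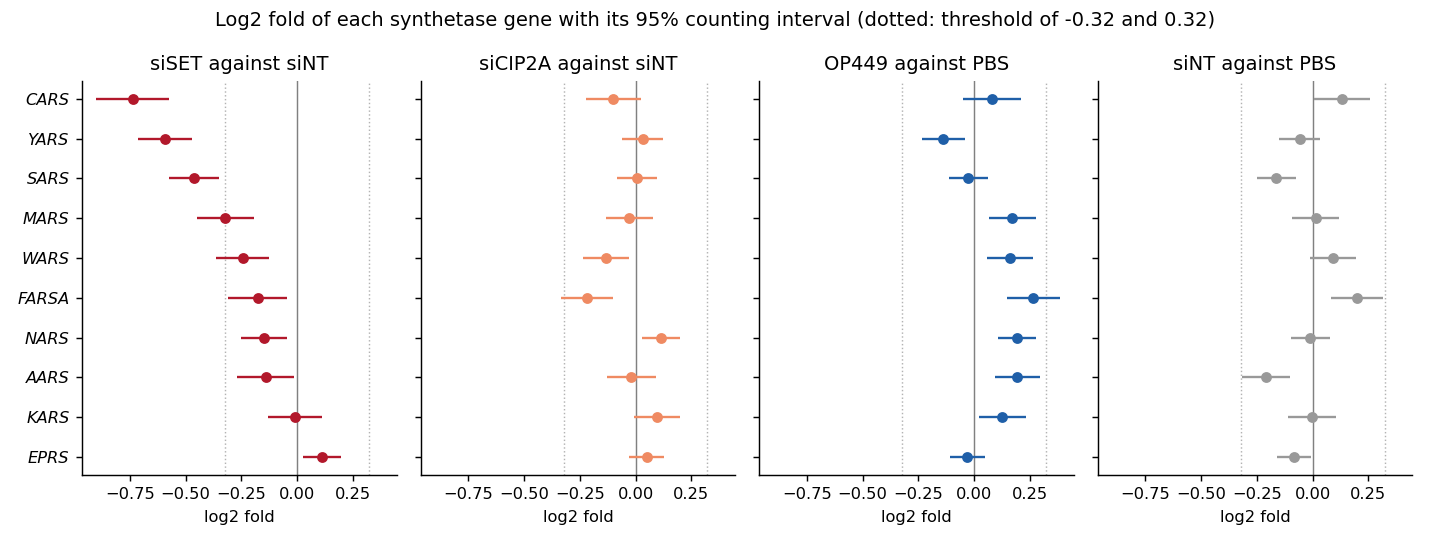
Log2 fold (horizontal axis) of each gene with its 95% counting interval in 4 comparisons, 1 library per group; dotted lines mark log2 folds of -0.32 and 0.32. In siSET against siNT the genes spread from -0.74 (CARS) to 0.11 (EPRS), while in the other comparisons all 10 lay inside the dotted lines.

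Set against PBS, which differs from siSET in time as well as in siRNA, the picture kept its leading genes. The log2 fold was -0.65 for YARS, -0.62 for SARS and -0.61 for CARS. AARS was counted as lower here too, at -0.35, while MARS was at -0.31, just outside, and FARSA was at 0.02. That made 4 genes counted as lower, against 12.6% of all genes. Against siCIP2A, siSET had a log2 fold of -0.64 for CARS, -0.62 for YARS and -0.47 for SARS. These comparisons share the siSET library and are not independent. The siSET library was the lowest of the 5 for 8 of the 10 genes, all but EPRS and FARSA, against 23.6% of genes. For KARS, however, the gaps to siNT, siCIP2A and PBS were within counting error. For AARS and WARS the gap to siCIP2A was as well.

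Groupings of the enzymes were set beside the spread within siSET, without a test. Of the 5 class I genes (CARS, EPRS, MARS, WARS and YARS, with EPRS placed by its glutamate domain) the median log2 fold against siNT was -0.32. Of the 5 class II genes (AARS, FARSA, KARS, NARS and SARS) it was -0.15. The 3 genes of the multisynthetase complex had a median of -0.01, with MARS low and EPRS high. All 7 genes outside the complex were below siNT, with intervals wholly below 0 and a median of -0.24.

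The CARE letters were set beside the log2 folds in siSET against siNT. CARS and MARS, which carry these letters across the start, were counted as lower in siSET. AARS and NARS, which carry the letters elsewhere, were at -0.14 and -0.15. SARS, at -0.46, had no match in its windows, and for YARS, at -0.59, no window was used. Whether the letters bear on these folds was not tested. Among genes that are not synthetases of this set, 32 past the floor carried TTGCATCA in a window. Of those, 22 were below siNT in siSET, against 47.9% of all genes past the floor. The median log2 fold of the 32 was -0.14, against 0.02 for genes with a window and no match. The looser TTNCATCA did not show this, with 53 of 114 such genes below siNT and a median of 0.01, against 0.02 without it. Between the 2 controls, in siNT against PBS, 23 of 33 genes with TTGCATCA were also below 0, against 51.0% of all genes. The median of the 33 there was -0.05, against -0.005 without the match. In siCIP2A against siNT 17 of 32 were below 0 (47.4% of all genes), and in OP449 against PBS 15 of 32 (46.3%). Of the ATF4 response list read below, 21 genes had a window, and 4 of these held TTGCATCA.

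As a share of all recovered reads of the gene table, the 10 genes together made up 0.266% in siSET (interval 0.261% to 0.271%). They made up 0.312% in siCIP2A, 0.311% in siNT, 0.341% in OP449 and 0.316% in PBS. The siSET share was the lowest and the OP449 share the highest, and neither interval overlapped those of the other libraries, while siCIP2A, siNT and PBS lay within counting error of each other.

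After CIP2A siRNA the synthetase genes were level with siNT. The median log2 fold was -0.01, against 0.02 for all genes, with 5 genes below 0 and 5 above, and it changed sign with the scaling. Of all genes 47.4% were below 0. None of the 10 was counted as lower, against 10.1% of genes, and none as higher, against 11.9%. FARSA had the largest difference, at -0.22 (interval -0.34 to -0.10), followed by WARS at -0.13 (interval -0.24 to -0.03). NARS was on the other side, at 0.11 (interval 0.03 to 0.20). The genes that were lowest in siSET were close to 0 here. YARS was at 0.03 and SARS at 0.01, and CARS was at -0.10 with an interval of -0.22 to 0.02.

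After OP449 most of the synthetase genes were above PBS by small amounts. The median log2 fold against PBS was 0.14, against 0.02 for all 6095 genes past the floor, and 7 of the 10 were above PBS. The other 3 were below 0, as were 46.3% of genes. None was counted as higher, as were 9.93% of genes, and none as lower, as were 8.15%. FARSA had the largest log2 fold, 0.26 (interval 0.15 to 0.38). AARS and NARS were both at 0.19, MARS at 0.17, WARS at 0.16 and KARS at 0.13. For these 6 genes the interval lay wholly above 0, as it did for 19.3% of all genes, and for the same 6 OP449 was the highest of the 5 libraries, as it was for 25.3% of genes. YARS was below PBS, at -0.14 (interval -0.24 to -0.04), and CARS, EPRS and SARS had intervals that held 0.

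The controls differed from each other by amounts of this size. In siNT against PBS, which differ in siRNA and in time, the median log2 fold was -0.01 with 6 genes below 0, against 51.0% of all genes. AARS was at -0.21 (interval -0.32 to -0.10) and SARS at -0.16 (interval -0.25 to -0.07), while FARSA was at 0.20 (interval 0.08 to 0.32) and CARS at 0.13 (interval 0.00 to 0.25). None of the 10 was counted as lower, against 8.43% of genes, or as higher, against 8.3%. The largest difference between the controls, 0.21 on the log2 scale, was exceeded in siSET against siNT by CARS, YARS, SARS, MARS and WARS. In OP449 against PBS only FARSA exceeded it, and in siCIP2A against siNT FARSA did, by 0.01.

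Per kilobase of transcript, SARS had the highest level, 1238 ± 197 scaled counts (SD over the 5 differently treated libraries). NARS followed with 797 ± 72.5, FARSA with 754 ± 68.8 and KARS with 710 ± 31.6. EPRS, the most abundant before length was taken into account, had 633 ± 18.3. Below it came YARS with 613 ± 102, WARS with 601 ± 50.3, MARS with 559 ± 65.1, AARS with 477 ± 73.1 and CARS with 403 ± 73.7. The values of SARS lay above all of those of NARS, and the values of KARS above all of those of EPRS, while every other neighbouring pair in this order overlapped. Oligo-dT priming can favour 3′ ends, so a level per kilobase is approximate.

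Related gene lists were read beside the 10 genes. The ATF4 response list, which holds none of the 10, had 23 genes past the floor. In siSET against siNT 17 of them were below 0 and 10 were counted as lower, as were 47.9% and 12.9% of all genes. The median log2 fold of the list was -0.20. PPP1R15A, a regulator of eIF2alpha phosphatase, was at -0.83 (interval -0.96 to -0.71). In siCIP2A against siNT, where the synthetases were level, 17 of the 23 were below 0 and 6 were counted as lower. Among all genes the shares were 47.4% and 10.1%, and the median of the list was -0.16. The amino acid transporter SLC7A1 was at -0.94 there, while PPP1R15A was the highest of the list, at 0.63. In siSET against siCIP2A the list was level, with 12 of 22 genes below 0 and a median of -0.02. In OP449 against PBS the median was 0.05, with 7 of the 23 counted as higher and 1 as lower, against 9.93% and 8.15% of all genes. PPP1R15A was at 0.59 there (interval 0.51 to 0.68). CHAC1, a glutathione-degrading enzyme, is counted in all 3 comparisons but passed the floor only through siNT or OP449. It had 39.3 scaled counts in siSET, 37.5 in siCIP2A, 75.8 in siNT, 85.0 in OP449 and 47.6 in PBS, and its log2 fold in siSET against PBS was -0.27 (interval -1.08 to 0.49).

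Of the genes of tRNA processing and export, 28 past the floor, 20 were above siNT in siCIP2A and 18 were above PBS in OP449. Among all genes the shares were 52.6% and 53.7%. In siSET against siNT 18 of the list were above 0, against 52.1% of all genes. The median log2 fold of the list there was 0.11, against 0.01 for all genes. The tRNA methyltransferase gene METTL1 was highest at 0.61, but it was low in siNT, and in siSET against PBS it was at 0.12 (interval -0.30 to 0.54). TYW3, which acts in wybutosine synthesis, was lowest at -0.50. Genes of RNA polymerase III and its factors, which transcribe tRNA, had a median of -0.02 over 10 genes. POLR3GL was at -0.93 and POLR3B at 0.46. The 3 elongation factor genes in the table had a median of 0.00.

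**Figure D4:**
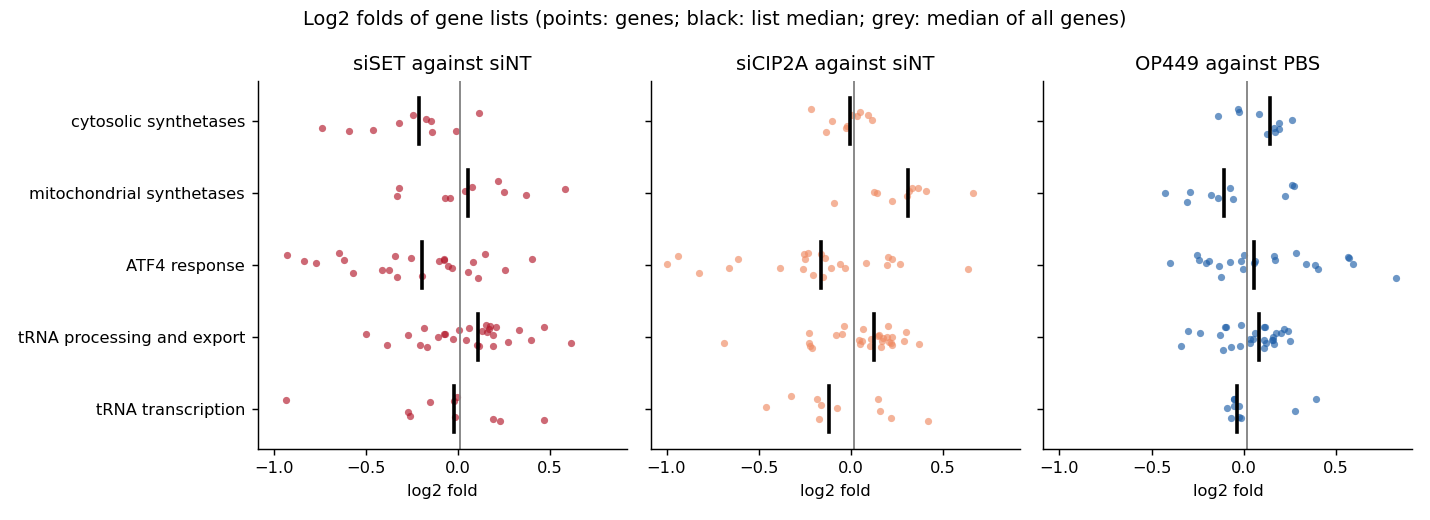
Log2 folds of single genes (points) in 5 lists, with the list median (black) and the median of all genes (grey), for siSET against siNT, siCIP2A against siNT and OP449 against PBS; vertical scatter within a list has no meaning. The cytosolic synthetases had a median of -0.21 in siSET, -0.01 in siCIP2A and 0.14 in OP449.

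The mean centred log2 profile of the 10 genes over the libraries was -0.24 in siSET, 0.01 in siCIP2A, 0.03 in siNT, 0.14 in OP449 and 0.04 in PBS. By Pearson correlation over the 5 libraries, the genes most like it, among 2263 candidates, were C12orf75 (0.999), CCDC82 (0.995), ALKBH8 (0.993), DNAJA2 (0.993) and SLTM (0.992). ALKBH8 is a tRNA-modifying enzyme, with 202 scaled counts in siSET, 294 in siCIP2A, 320 in siNT, 383 in OP449 and 334 in PBS. DNAJA2 is a co-chaperone. Over 5 points, and with the closest genes picked from so many, the coefficient is a description only.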

How the data were processed

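The deposited values were signals for RefSeq transcripts that the authors had put on a common scale, here called scaled counts. The sources used here give neither the normalization nor the counting program and its use of strand. The submitters' processing notes name hg19, CASAVA and Bowtie 1.0.0. In each library 100% of values were whole multiples of the smallest step (tolerance 0.001 reads), so whole reads were recovered. A single read corresponded to 1.71 scaled counts in siSET, 1.10 in siCIP2A, 1.19 in siNT, 1.29 in OP449 and 1.13 in PBS.

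The table covered part of the genome, and genes elsewhere were not analysed here. Symbols turned into dates in 15 rows were restored by accession. Log2 folds used a pseudocount of 1. Background shares cover genes with a mean of at least 50 scaled counts over both libraries. Ratio intervals were exact Clopper-Pearson intervals at 95%, without pseudocount. Their computation was run on simulated reads that held counting error only, which cannot speak to variation between replicate libraries. Alternatives changed the scaling, pseudocount, floor, fold, transcript row or control. Lengths came from GENCODE transcripts, for CARS from another of its transcripts. Python 3.11.15, numpy 2.4.6, pandas 2.3.3 and scipy 1.17.1 were used. The genes, lists and motifs were chosen with earlier results of these data known. Named genes were all members, the 5 most alike in pattern and, of other lists, genes with the 2 largest folds in a comparison; not every gene that this rule selects is reported here. Neighbouring genes were named for their position, and CARS2 after its values were seen.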

Additional observations from a re-analysis of the deposited data

How the results depend on the processing

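The median log2 fold of the 10 genes kept its sign in siSET against siNT (from -0.23 with PBS as control to -0.18 with equal upper quartiles) and in OP449 against PBS (0.13 to 0.17) under every scaling, pseudocount, transcript row and control tried. The medians of siCIP2A against siNT and of siNT against PBS lay within 0.03 of 0 and changed sign with the scaling. In siSET against siNT 2 genes were at least 1.5-fold lower, as were 4.31% of all genes, and 0 at least 2-fold lower, as were 0.789%. A binomial test (exact, on recovered reads, Benjamini-Hochberg adjusted at 0.05), added after seeing the data, compares libraries only. It called 7 of the 10 lower and 1 higher in siSET against siNT, where it called 929 of all 6083 genes lower and 873 higher. In siCIP2A against siNT it called 2 lower and 1 higher (of all genes 16.8% and 16.4%), in OP449 against PBS 1 lower and 5 higher (13.1% and 13.4%), and in siNT against PBS 2 lower and 1 higher (12.7% and 13.3%). Of 220 single folds recomputed, 212 stayed within their counting interval. With PBS as control 8 folds left it and 12 did not. The scalings, the pseudocount and the summed rows shift a fold by less than these intervals are wide, so they could hardly move one outside. No scaling moved the median of all genes by more than 0.03. No paired analysis was possible because each group had 1 library, so no library could be left out either.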

Other observations

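The mitochondrial synthetases are encoded by nuclear genes and, KARS aside, mostly by genes separate from the cytosolic ones. In siSET against siNT the 10 in the table had a median log2 fold of 0.06, with 4 below 0, against 47.9% of all genes. Against PBS the median of siSET was -0.10, with 6 below 0, against 48.7% of all genes. The sign of the median thus depended on the control. TARS2 was at 0.58 (interval 0.33 to 0.83) and EARS2 at 0.37 (interval 0.15 to 0.60) against siNT, but at 0.11 and 0.10 against PBS, with intervals that held 0, while CARS2 was at -0.33 (interval -0.58 to -0.09) against siNT and -0.42 against PBS. In siCIP2A against siNT 9 of the 10 were above 0, against 52.6% of all genes. The median of the 10 was 0.31 there, when the cytosolic genes were level. In siNT against PBS 9 of the 10 were below 0, against 51.0% of all genes, with a median of -0.16. The median of siCIP2A against PBS was 0.14. The sets of folds that use siNT share that 1 library, in which these genes were low. TARS2, the threonine enzyme, had 465 scaled counts in siSET, 491 in siCIP2A, 311 in siNT, 517 in OP449 and 431 in PBS, so siNT stood apart from the other 4. In OP449 against PBS the median was -0.11, and SARS2 had the largest difference, at -0.43 (interval -0.73 to -0.13).

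Interferon genes, read beside WARS, had a median log2 fold of 0.07 over 23 genes in siSET against siNT, of -0.22 in siCIP2A against siNT and of -0.25 in OP449 against PBS. WARS, which carries the interferon-type letters, was at -0.24, -0.13 and 0.16 in the same comparisons. With PBS as control the median of the interferon genes was 0.17 in siSET and 0.01 in siCIP2A, over 22 genes. The siCIP2A median thus depended on the control. In siNT against PBS 15 of 23 interferon genes were above 0, against 49.0% of all genes, with a median of 0.06.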
